A study of Mus musculus with 8 samples.

Results

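The sites of the nuclear receptor Nr5a2 on mouse chromatin were compared between its native form and Nr5a2BiD, a fusion protein, in 2 of the 8 CUT&Tag libraries of the series. In CUT&Tag an antibody brings the transposase Tn5 to a chromatin protein, so that the DNA around its sites is cut, tagged and sequenced. BiD is the N-terminal domain of SS18, a subunit of the BAF chromatin remodelling complex, joined through a linker to the N-terminus of the factor, and it binds the BAF ATPase BRG1. Both libraries came from mouse embryonic fibroblasts (MEFs) on day 3 of reprogramming, were made with a Flag antibody, and carry the name of the Flag-tagged factor as their only label. By the study's methods the MEFs came from embryos with an Oct4-GFP reporter, and the factors were delivered with retroviruses. The labels do not give which other factors the same cells received. The other 6 libraries hold Oct4, Sox2 and Nanog, each as the native and the BiD form. Each form was assayed in 1 library, so no replicate error exists and no test was made. Intervals are exact 95% binomial intervals that cover counting error over regions only.

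NR5A2, also called LRH-1, is an orphan nuclear receptor that binds DNA as a monomer. It reads a single nuclear receptor half-site, AGGTCA or AGGCCA, extended at its 5′ end by TCA or CCA. In liver and pancreas it controls bile acid, lipid and digestive enzyme genes, and in early embryos and embryonic stem cells it acts among the pluripotency regulators, where it can stand in for Oct4 in reprogramming. BAF complexes move nucleosomes at enhancers, and AP-1, TEAD and RUNX factors are the main enhancer-binding proteins of fibroblasts.

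Peaks of the 2 libraries that overlapped by at least 1 bp were merged, and each merged region was called shared, Nr5a2BiD only or native only. This gave 118010 regions, out of 306466 in the union of all 8 libraries. Of these 64877 (55%) were shared, 10659 (9.03%) were Nr5a2BiD only and 42474 (36.0%) were native only. The native library held 108030 peaks and the Nr5a2BiD library 76217. Summit heights, in overlapping tags, had a median of 21 in both libraries, with a lowest value of 8 in native Nr5a2 and 9 in Nr5a2BiD. The study's notes on read numbers list more uniquely mapped read pairs for Nr5a2BiD than for native Nr5a2, so the longer list came from the library with fewer such pairs. An effect of depth was not tested. When each list was limited to its 50000 best peaks by score, 36479 regions were shared, 13432 were native only and 13348 were Nr5a2BiD only. The near-equal size of the single-form classes follows there from lists of equal length. What follows describes what lay in each class rather than its size.

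By the gap or overlap between peaks, few regions lay at the border of the definition. Among native-only regions 349 (0.822%) had an Nr5a2BiD peak within 100 bp and 4229 (9.96%) within 1 kb, and the median gap to the nearest Nr5a2BiD peak was 6960 bp. Among Nr5a2BiD-only regions 138 (1.29%) had a native peak within 100 bp and 1537 (14.4%) within 1 kb, with a median gap of 5354 bp. In shared regions the peaks of the 2 libraries overlapped by a median of 800 bp, and in 33 regions by less than 50 bp. The class sizes did depend on whether peaks or summits were matched. By summits within 100 bp, 53453 regions were shared, 22764 were Nr5a2BiD only and 54577 were native only.

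The sequences below show where the NR5A motif lay in strong regions of each class that held one within 50 bp of the summit. Each is read 5′ to 3′ on the strand of the motif from the mouse genome GRCm38 (mm10), with the 9 motif letters in capitals. The windows are centred on the summit, except that the one at Tmem246 lies in an untranslated exon and is given with 10 bases to either side of the motif.
Cd83, shared, intergenic, 301117 bp from the start site, chr13:44085842-44085942, minus strand: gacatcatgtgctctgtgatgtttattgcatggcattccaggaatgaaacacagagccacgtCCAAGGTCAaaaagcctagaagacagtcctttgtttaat
Mtrf1l, shared, 258 bp upstream of the start site, chr10:5824118-5824218, minus strand: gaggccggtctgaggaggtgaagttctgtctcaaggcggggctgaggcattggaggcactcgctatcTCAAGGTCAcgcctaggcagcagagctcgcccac
Bmp3, Nr5a2BiD only, intergenic, chr5:98890656-98890756, minus strand: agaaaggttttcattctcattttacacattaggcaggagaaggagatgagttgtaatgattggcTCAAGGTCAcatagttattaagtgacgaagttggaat
Tmem246, native only, chr4:49597645-49597673, plus strand: tcctggcttgCCAAGGCCAccgccgctgt
Maf, native only, intergenic, chr8:115650174-115650274, plus strand: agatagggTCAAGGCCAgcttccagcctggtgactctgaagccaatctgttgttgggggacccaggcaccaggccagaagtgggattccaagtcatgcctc
The shared regions at Cd83 and Mtrf1l had scores of 1269 and 1145 in native Nr5a2 and of 1372 and 1074 in Nr5a2BiD, all among the highest of their lists. The score is 10 times the -log10 of the peak caller's p-value. The Nr5a2BiD-only region at Bmp3 had a score of 210, at the 75.5th percentile of the Nr5a2BiD list. The native-only regions at Tmem246 and Maf had scores of 661 and 552, at the 98.3th and 96.5th percentile of the native list.

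Nearly all of the strongest sites of each form were sites of the other form too. When each list was cut by score into 10 parts of equal size, the share of native peaks found in Nr5a2BiD rose from 21.9% (21.1 to 22.7) in the lowest part to 99.1% (98.9 to 99.3) in the highest. The share of Nr5a2BiD peaks found in native Nr5a2 rose from 61.3% (60.2 to 62.4) to all but 3 of 7622. Native-only regions had a median native score of 79.3, against 189 in shared regions, and a median height of 16 against 27 tags. Nr5a2BiD-only regions had a median score of 68.2 against 134 in shared regions, and a median height of 15 against 22 tags. At or above the 90th score percentile of their own list lay 94 native-only and 3 Nr5a2BiD-only regions. Single-form peaks were also narrower, with a median width of 659 bp for native only and 635 bp for Nr5a2BiD only. In shared regions the native peak had a median width of 943 bp and the Nr5a2BiD peak of 883 bp. The merged shared regions, which join peaks of both libraries, had a median of 1031 bp.

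**Figure D1:**
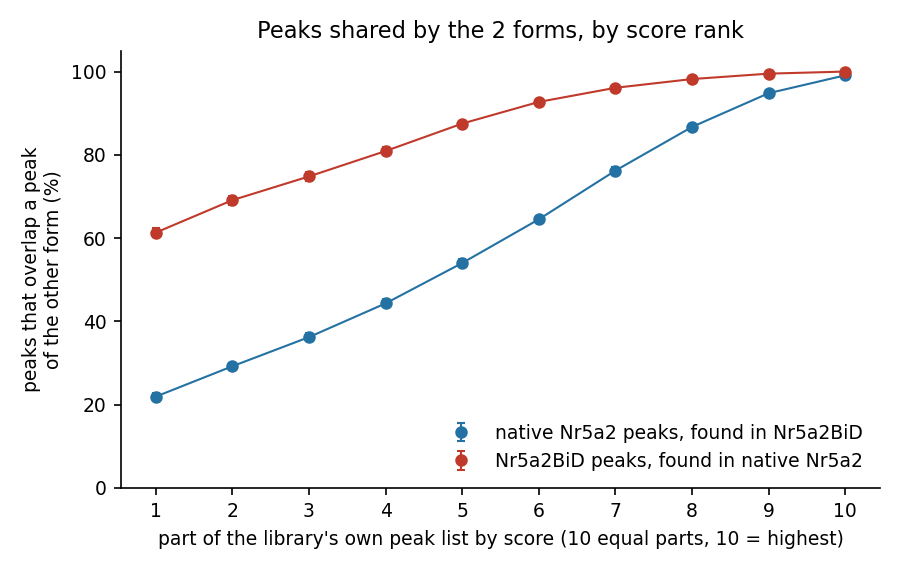
Share of each library's peaks that overlap a peak of the other form (y axis, %), by rank in that library's own score list, cut into 10 equal parts (x axis, 10 is the highest); bars are exact 95% intervals. Nr5a2BiD peaks start at 61.3% and native peaks at 21.9%, and the curves meet near 100% in the highest part.

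Within shared regions the 2 forms ordered the sites alike but not identically. Spearman's rho over 64863 shared regions on the placed chromosomes was 0.682 for the scores and 0.733 for the heights. This is a description, since the regions of a library share its depth and preparation. When both lists were ranked over shared regions alone, 52620 regions (81.1%) lay less than 30 percentile points apart. In 5924 regions (9.13%) the rank was at least 30 points higher in Nr5a2BiD, and in 6319 (9.74%) at least 30 points higher in native Nr5a2. The summits of the 2 libraries lay a median of 35 bp apart, and 81.1% of regions with an NR5A motif and 81.7% of those without had summits within 100 bp.

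**Figure D2:**
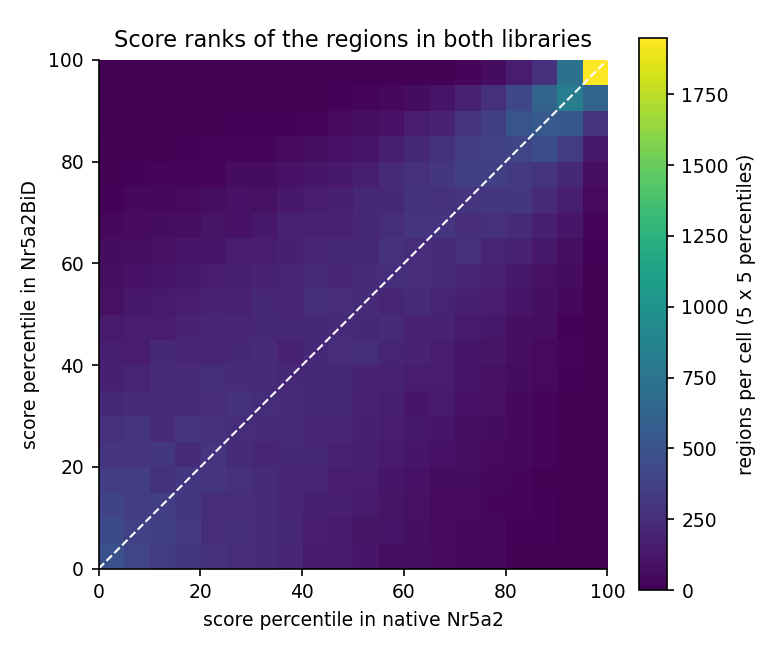
Regions called in both libraries, counted in cells of 5 by 5 percentiles of native Nr5a2 score (x axis) and Nr5a2BiD score (y axis), both ranked among shared regions; the dashed line marks equal rank. The fullest cell is the top corner, where the highest ranks of both forms meet, and the regions spread around the line below it (Spearman's rho 0.682).

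The NR5A motif was searched as the words TCAAGGTCA, TCAAGGCCA, CCAAGGTCA and CCAAGGCCA on both strands, within 50 bp of the summit. It was most frequent in native-only regions and least frequent in Nr5a2BiD-only regions. It lay in 5445 of 42471 native-only regions on the placed chromosomes (12.8%, 12.5 to 13.1), in 6321 of 64863 shared regions (9.75%, 9.52 to 9.98) and in 675 of 10653 Nr5a2BiD-only regions (6.34%, 5.88 to 6.82). In windows of the same length 500 bp away the shares were 1.07%, 1.22% and 1.10%, so the motif was 11.9 times, 7.99 times and 5.74 times as frequent at the summit as beside it. Shared regions were centred on the native summit, and centred on the Nr5a2BiD summit 8.14% of the same regions (7.93 to 8.36) held the motif. The order of the classes was the same for either centre.

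The order of the classes was also seen at matched scores, with intervals that overlapped in some bands of high score. Among regions with a native score from 100 to below 150, 12.5% of native-only and 10.5% of shared regions held the motif. Below a score of 75 the shares were 12.8% and 9.49%. Among regions with an Nr5a2BiD score from 100 to below 150, 4.60% (3.55 to 5.85) of Nr5a2BiD-only and 10.3% (9.76 to 10.8) of shared regions held it. The same direction ran through the shared regions, where 12.9% of those ranked at least 30 points higher in native Nr5a2 held the motif, against 7.16% of those ranked higher in Nr5a2BiD. In all these comparisons shared regions were centred on the native summit. Centring on the Nr5a2BiD summit was run only over all shared regions together.

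Around the summit the motif had a maximum on each side in native-only and shared regions. In native-only regions 30.6 and 33.1 matches per 1000 regions fell in the bins from 20 to 40 bp on either side, against 26.6 and 25.1 in the bins next to the summit. Shared regions had 25.4 and 26.0 matches in the outer bins and 19.9 and 19.1 in the inner ones. Nr5a2BiD-only regions had 15.2 and 16.9 in the outer bins and 14.5 and 13.7 in the inner ones. These rest on 162 and 180 matches against 155 and 146, so a maximum on each side was not clear in this class. Among matches within 50 bp of the summit the median distance was 24 to 25 bp in all 3 classes. Matches spread evenly over that window would give nearly the same median, so it does not describe how they clustered.

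**Figure D3:**
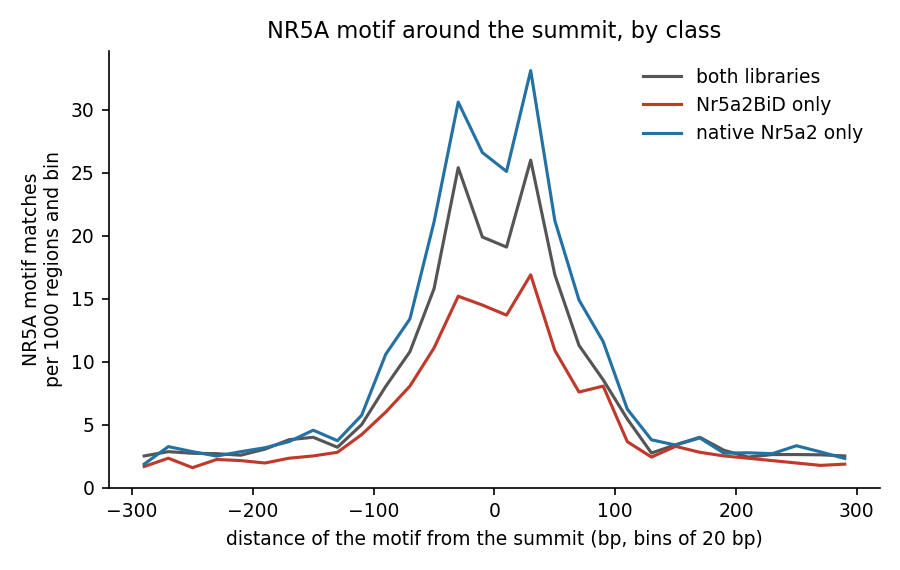
NR5A motif matches per 1000 regions in bins of 20 bp (y axis) against their distance from the summit in bp (x axis), for each class. Native-only and shared regions peak near 30 bp on both sides of the summit, native-only regions highest at 33.1 per 1000 regions. Nr5a2BiD-only regions are lowest, with at most 16.9, and their dip at the summit is slight.

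The 4 words of the motif were used unevenly in native-only regions, at 18% to 32.7% of the matches. Their use was nearly even in shared regions, at 23.8% to 26.5%, and ran from 23.1% to 29.2% in Nr5a2BiD-only regions. TCAAGGCCA made up 32.7% of the matches in native-only regions, 25.6% in shared and 24.2% in Nr5a2BiD-only regions. CCAAGGCCA made up 18%, 23.8% and 23.5% of the matches in the same order. By region, TCAAGGTCA lay in 3.86% of native-only and 2.64% of shared regions, and TCAAGGCCA in 4.23% and 2.59%. The words that begin with C had overlapping intervals in these 2 classes. CCAAGGTCA lay in 2.56% (2.41 to 2.71) and 2.44% (2.32 to 2.56), and CCAAGGCCA in 2.34% and 2.36%. Each of the 4 words was least frequent in Nr5a2BiD-only regions. Away from promoters, words that begin with T made up 63.0% (61.6 to 64.3) of the matches in native-only, 52.6% (51.3 to 53.8) in shared and 54% (50.3 to 57.8) in Nr5a2BiD-only regions. Among matches 150 to 300 bp from the summit of the same regions they made up 65.4% (63.1 to 67.6), 60.8% (58.8 to 62.7) and 65.1% (59.7 to 70.2). The part of these words was thus lower at the summit than beside it in shared and Nr5a2BiD-only regions, and in native-only regions the intervals of the 2 distances overlapped. The 2 words that begin with T went opposite ways in native-only regions away from promoters. TCAAGGTCA made up 30.3% (29.0 to 31.6) of the matches at the summit and 24.6% (22.7 to 26.7) beside it. TCAAGGCCA made up 32.7% (31.4 to 34.0) at the summit and 40.7% (38.5 to 43.1) beside it.

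Motifs of fibroblast enhancer proteins followed the opposite order to the NR5A motif. The AP-1 site TGACTCA, which reads TGAGTCA on the other strand, lay in 8.24% (7.73 to 8.78) of Nr5a2BiD-only, 7.29% (7.09 to 7.49) of shared and 4.19% (4.0 to 4.38) of native-only regions. Centred on the Nr5a2BiD summit, 7.70% (7.50 to 7.91) of shared regions held the AP-1 site, and the interval overlapped that of Nr5a2BiD-only regions. The TEAD words CATTCCA and CATTCCT lay in 8.80%, 6.08% and 4.45%, and their last base aside they are the same word. The RUNX word AACCACA lay in 4.62%, 2.53% and 1.87%. At 500 bp from the summit these shares were alike across the classes, with 1.70% to 1.79% for AP-1, 3.56% to 3.84% for TEAD and 2.30% to 2.49% for RUNX. The RUNX word in native-only regions was thus less frequent at the summit than beside it, at 0.751 times the flank.

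The octamer ATGCAAAT, which Oct4 and other POU factors bind, was rare but differed most between the classes. It lay in 160 Nr5a2BiD-only regions (1.5%, 1.28 to 1.75), 290 shared regions (0.447%, 0.397 to 0.501) and 104 native-only regions (0.245%, 0.200 to 0.297). The flanking shares were 0.779%, 0.563% and 0.553%, so the octamer was 1.93 times as frequent at the summit as beside it in Nr5a2BiD-only regions and 0.443 times in native-only regions. Of the Nr5a2BiD-only regions with an octamer, 40.6% (32.9 to 48.7) overlapped a peak of Oct4 or Oct4BiD, against 22.6% (21.8 to 23.4) of those without. The contrast had the same direction in the other classes, at 45.9% against 28.9% in shared and 26% against 11.9% in native-only regions. The SOX word CCATTGTT lay in 0.460%, 0.256% and 0.297%, below its flanking share in every class.

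A match says only that these letters are in the window, and no word search names the protein that was there. Within shared regions, centred on the native summit, the same contrasts appeared between the ends of the rank difference. AP-1 words lay in 9.22% of the regions ranked at least 30 points higher in Nr5a2BiD and in 4.30% of those ranked higher in native Nr5a2. TEAD words lay in 8.02% and 4.05%, RUNX words in 4.0% and 1.42% and octamers in 1.01% and 0.301%.

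Native-only regions were the ones least often found with another factor. A peak of at least 1 of the 6 Oct4, Sox2 and Nanog libraries overlapped 52.5% (52.1 to 52.9) of shared, 48.2% (47.2 to 49.1) of Nr5a2BiD-only and 28.2% (27.7 to 28.6) of native-only regions. In all 6 libraries lay 6.37%, 2.93% and 0.457%. Merged shared regions are wider and so have more room for an overlap. By the summit alone 43.6%, 43.9% and 20.6% lay inside a peak of another factor, and the intervals of the shared and Nr5a2BiD-only classes then overlapped. Between native scores of 100 and 150 the shares with another factor were 28.7% for native-only and 47.8% for shared regions. Between Nr5a2BiD scores of 100 and 150 they were 56.2% for Nr5a2BiD-only and 49.3% for shared regions.

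By overlap of whole regions the order native only below Nr5a2BiD only below shared held in each of the 6 libraries. By the summit alone native-only regions were again lowest in each library, but the summits of Nr5a2BiD-only and shared regions lay inside Sox2 peaks at 13.6% (13.0 to 14.3) and 12.7% (12.5 to 13.0) and inside Nanog peaks at 26.9% and 27.1%. By whole regions, Oct4BiD peaks overlapped 10.6%, 19.3% and 26.5% of the 3 classes in that order, and native Oct4 peaks 5.06%, 14.1% and 18.5%. For Sox2BiD the shares were 14.3%, 25% and 33.2%, and for native Sox2 5.08%, 15.1% and 16.1%. For NanogBiD they were 11.7%, 25% and 32.2%, and for native Nanog 9.20%, 28.5% and 31.9%. The share of Nr5a2BiD-only regions was therefore no higher in NanogBiD than in native Nanog, whereas it was higher in Oct4BiD and Sox2BiD than in native Oct4 and Sox2, whose peak lists are shorter. The BiD libraries held 93978 and 120594 peaks for Oct4 and Sox2, and the native ones 54794 and 58162.

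**Figure D4:**
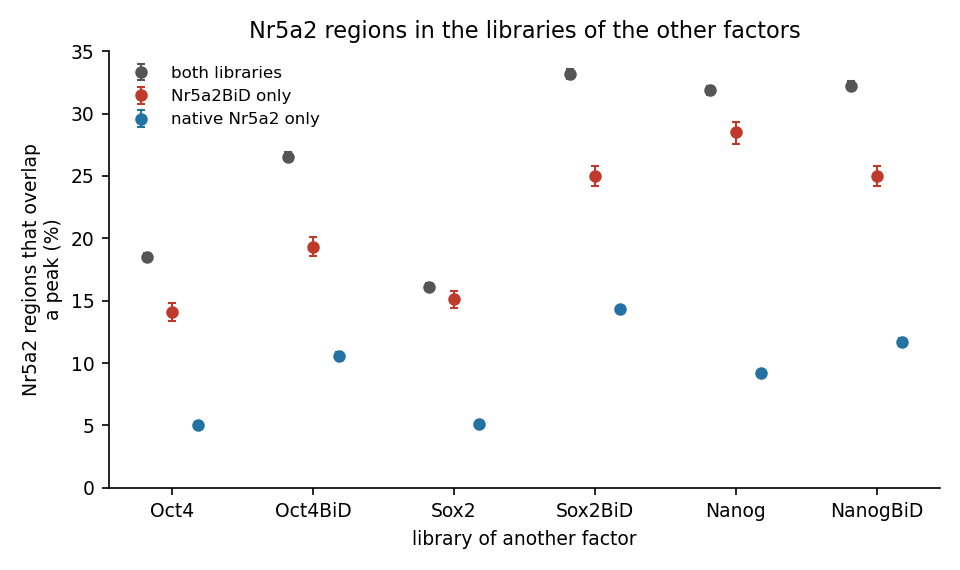
Share of Nr5a2 regions that overlap a peak in each library of another factor (y axis, %; x axis, library), by class; bars are exact 95% intervals. In each library native-only regions are lowest, from 5.06% in Oct4 to 14.3% in Sox2BiD, and shared regions, which are wider, are highest by this measure.

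Regions without another factor held the NR5A motif more often than those with one, in each class. The shares were 14.0% and 9.84% in native-only regions, 12.0% and 7.67% in shared regions, and 8.89% (8.15 to 9.67) and 3.59% (3.09 to 4.13) in Nr5a2BiD-only regions. AP-1 words went the other way, with 10.2% of Nr5a2BiD-only regions that overlapped a peak of another factor and 6.46% of those that did not. Nr5a2BiD-only regions with a peak of another factor had the lowest NR5A share and the highest AP-1 share of these 6 groups.

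Over all scores, shared regions lay at promoters more often than regions of either single form. Within 2 kb of the start site of a protein-coding gene lay 17.0% (16.8 to 17.3) of shared, 9.87% (9.59 to 10.2) of native-only and 5.39% (4.97 to 5.83) of Nr5a2BiD-only regions. At matched native scores the shares of shared and native-only regions were close at the low end, 8.25% (7.61 to 8.93) and 8.54% (8.15 to 8.94) from 50 to below 75 and 11.9% (11.4 to 12.6) and 10.8% (10.2 to 11.5) from 100 to below 150, and apart at 300 or more, 26.6% and 15.6%. At Nr5a2BiD scores from 100 to below 150 the shares were 14.3% for shared and 4.74% for Nr5a2BiD-only regions. The order over all scores also depended on the overlap of whole peaks: when regions were matched by summits within 100 bp, the shares were 15.2%, 13.3% and 16.4%. In shared regions at promoters 72.4% of the summits of the 2 libraries lay within 100 bp of each other, against 83.5% elsewhere. The median distance to a protein-coding start was 22486 bp for shared, 23105 bp for native-only and 45227 bp for Nr5a2BiD-only regions. More than 100 kb from any such start lay 32.6% of Nr5a2BiD-only regions, against 19% of shared and 17.4% of native-only regions. Introns held 48.9%, 49.2% and 51.7% of the summits in the shared, Nr5a2BiD-only and native-only classes, and intergenic sequence held 39.9%, 44.8% and 38.8%. Median GC content in the window of 50 bp to either side of the summit was 46.5% in Nr5a2BiD-only regions and 50.5% in both other classes. At least 5 CpG lay in 11.5% of these windows in shared, 5.0% in native-only and 2.83% in Nr5a2BiD-only regions. Over chromosomes 1 to 19 and X, native-only regions made up 33.7% to 37.4% and Nr5a2BiD-only regions 7.65% to 10.8%, the latter highest on X.

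The highest-scoring regions of each class differed in where they lay. Among shared regions the top 10 by mean score percentile included promoters, such as those of Kcnip4, a potassium channel-interacting protein (scores 1331 native and 1232 Nr5a2BiD, heights 88 and 102), Gpr155 (1241 and 1271) and Cav2, a caveolin (1459 and 1034). They also included distal sites, such as 1 at 581394 bp upstream of Klf4, a pluripotency and epithelial factor, which had scores of 1295 and 1169 and a peak in all 6 libraries of other factors. Upstream of Thrsp, a regulator of lipid synthesis, the region at 3173 bp had the highest native score of all, 1494, and 1003 in Nr5a2BiD. None of these 10 except that at Cd83 held the NR5A motif within 50 bp of the native summit.

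All but 1 of the top 10 Nr5a2BiD-only regions by score lay more than 100 kb from a protein-coding start. The highest was 253915 bp from Phf14, with a score of 380 and a height of 23, at the 57.4th percentile of heights. The next were in an intron at Atrnl1 (342, height 27) and far from Sel1l (341, height 26). Only that at Tmem243, 7895 bp upstream of the start, lay nearer, with a score of 278 and a height of 16, at the 27.7th percentile of heights. The tallest Nr5a2BiD-only region, with 79 tags, was not among these 10, so they were not the strongest by height. None of the 10 held the NR5A motif. The top 10 native-only regions were nearer to genes, with 9 of 10 within 100 kb, and 4 held the motif. They included the region 201 bp from the start site of Tmem246 (661, height 37), 1 at 56872 bp from Maf, a leucine zipper factor (552, height 40), and 1 at 261 bp upstream of Kcna3, a potassium channel gene (534, height 44). Over the whole classes 32.6% of Nr5a2BiD-only and 17.4% of native-only regions lay beyond 100 kb, and 6.34% and 12.8% held the motif. Of the 384 native-only regions with a score of 300 or more, 9.90% (7.10 to 13.3) held the motif, so the top 10 do not stand for strong regions in general.

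By gene, native-only regions were spread widely. A region was given to the protein-coding gene with the nearest start site, within 100 kb, which placed 94816 regions at 17375 of 21829 genes. Of these regions 35084 (37.0%) were native only and 7184 (7.58%) Nr5a2BiD only, and these shares are the background for the counts by gene below. At 11667 genes native-only regions outnumbered Nr5a2BiD-only ones, and at 1112 genes it was the reverse. Regions of a native-only kind alone were found at 1429 genes and of an Nr5a2BiD-only kind alone at 233. At a promoter, taken as 2 kb to either side of a coding start, 11406 genes (52.3%) had a peak in both libraries, 2497 (11.4%) in native Nr5a2 only, 260 (1.19%) in Nr5a2BiD only and 7666 (35.1%) in neither. These shares are the background for the promoter counts below.

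The genes with the most native-only regions were large genes with many regions of every class. Nav2, a neuron navigator gene, had 26 of 57, Ank3, an ankyrin, 25 of 54, and Rbfox1, a splicing regulator, 25 of 50. Of the 2728 genes with at least 10 regions, the highest native-only shares were at Nrxn2, a synaptic neurexin (13 of 14), Lrp2, an endocytic receptor (10 of 11), and Nid1, the basement membrane protein nidogen (9 of 11). Nr5a2BiD-only regions were most numerous at Pde4d, a cAMP phosphodiesterase (11 of 65), Rbms3, an RNA-binding protein (10 of 48), and Lpp, a focal adhesion protein (9 of 49). They made up the highest share at Ell2, an RNA polymerase elongation factor (7 of 14), Rnf150 (6 of 13), and Hecw1, Pparg and Stag1 (5 of 11 each). At all of these the counts are ranks over all these genes, so the highest shares are a description of the extremes.

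The pluripotency regulators had 188 regions at 25 of 26 genes, of which 88 (46.8%, 39.5 to 54.2) were native only, 87 shared and 13 (6.91%) Nr5a2BiD only. At 22 of these genes native-only regions outnumbered Nr5a2BiD-only ones, and at Fgf4 and Lefty1 it was the reverse. The median native-only share per gene was 50%, against 33.3% over all genes with a region. Promoters had a peak in both libraries at 9 genes (34.6%), in native Nr5a2 only at 7 (26.9%) and in Nr5a2BiD only at none.

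Pou5f1, which encodes Oct4, had 1 region, and it was native only. It lay 2127 bp upstream of a start site at chr17:35500497-35505015, was 1 of the tallest of the native list with a height of 96 tags and a score of 237, and held peaks of Oct4BiD, Sox2BiD and Nanog as well. Where the Oct4-GFP reporter of these MEFs holds upstream sequence of this gene, its tags cannot be told apart from those of the gene itself. Esrrb, an orphan receptor that shares the half-site of NR5A2, had 9 shared and 11 native-only regions and none that was Nr5a2BiD only. Its strongest region lay in an intron at chr12:86365126-86366933, held an NR5A motif, and had a score of 786 and a height of 57 in native Nr5a2 against 266 and 24 in Nr5a2BiD. Sox2 had 3 shared, 9 native-only and 2 Nr5a2BiD-only regions, with heights of 11 to 21 tags in the native-only ones. Tbx3 had 10 shared and 11 native-only regions and 1 that was Nr5a2BiD only, and its promoter region had a score of 252 in native Nr5a2 and 250 in Nr5a2BiD. At the Tfcp2l1 start site a native-only region had a score of 193 and a height of 19. At Nanog, the regions were 1 shared, 2 native only and 1 Nr5a2BiD only, and none lay at the promoter.

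Known NR5A2 targets of liver, pancreas and steroid tissue had 52 shared, 30 native-only (34.9%, 24.9 to 45.9) and 4 Nr5a2BiD-only regions, and the median native-only share per gene was 29.2%. Nr0b2, which encodes the bile acid-induced repressor SHP, had a promoter region with a score of 1234 and a height of 103 in native Nr5a2 and of 859 and 84 in Nr5a2BiD. At Star, which moves cholesterol into mitochondria, both regions were shared, and the promoter region had scores of 352 and 557. Cyp7a1, the rate-limiting enzyme of bile acid synthesis, had 4 shared regions and 1 native only, and Cyp8b1, the sterol 12-alpha-hydroxylase, had 2 shared regions. Abcb11, the bile salt export pump, had 3 shared and 5 native-only regions, with scores of 52.5 to 146 in the latter.

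Epithelial genes had 91 regions, with 42 shared, 42 native only (46.2%, 35.6 to 56.9) and 7 Nr5a2BiD only (7.69%). Their promoters had peaks in both libraries at 8 genes, in native Nr5a2 only at 6 and in Nr5a2BiD only at 1, Cldn6. The median native-only share per gene was 50%. Epcam, an epithelial adhesion molecule, had 2 shared regions far upstream and 5 native-only ones, of which the region at 12894 bp upstream had a score of 205 and that at 1387 bp upstream a score of 155. Dsp, which encodes desmoplakin of desmosomes, had 1 shared and 5 native-only regions. Cdh1, which encodes E-cadherin, had 4 shared regions and 1 native only. Ovol2, a repressor of mesenchymal genes, had 3 regions, all native only, with scores of 59.2 to 140.

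Fibroblast and mesenchymal genes had 294 regions, with 103 native only (35.0%, 29.6 to 40.8) and 23 Nr5a2BiD only (7.82%), close to the shares over all genes. Their promoters had a peak in both libraries at 19 of 25 genes (76.0%), against 52.3% over all genes. The 13 fibroblast markers had promoter peaks in both libraries at 10 genes (76.9%), and 13 of their 143 regions (9.09%) were Nr5a2BiD only. Of 5 markers of endothelial, blood, liver and neural crest cells, 3 had a promoter peak in both libraries.

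Genes of AP-1 had 97 regions, with 34 native only (35.1%, 25.6 to 45.4) and 6 Nr5a2BiD only, and the median native-only share per gene was 40.3%. Junb had a single region, native only, that spanned chr8:84975256-84981836 with a height of 70 and a score of 141, and peaks of all 6 other libraries lay in it. Fos had 12 shared and 4 native-only regions. Subunits of BAF, the complex that the BiD domain binds, had 154 regions, with 49 native only (31.8%, 24.6 to 39.8) and 11 Nr5a2BiD only (7.14%). Of their 19 promoters 16 (84.2%) had a peak in both libraries, and that of Smarce1 had 1 in native Nr5a2 only. Smarca4, which encodes BRG1, had 3 shared, 5 native-only and 1 Nr5a2BiD-only region.

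Nuclear receptor genes had 392 regions at 45 of 49 genes, with 120 native only (30.6%, 26.1 to 35.4) and 40 Nr5a2BiD only (10.2%, 7.39 to 13.6). The median native-only share per gene was 27.8%. Promoters had a peak in both libraries at 34 genes (69.4%), in native Nr5a2 only at 3 genes (6.12%), and in Nr5a2BiD only at none. Pparg, the adipocyte receptor, had 5 shared regions, 5 Nr5a2BiD-only regions with scores of 63.8 to 99.7, and 1 that was native only. Rarb, a retinoic acid receptor, had 9 shared and 3 Nr5a2BiD-only regions, with scores of 77.0 to 136 in the latter, and 1 native-only region. Nr1h4, the bile acid receptor FXR, had 8 shared regions and 1 native only. These lists were chosen with earlier results in view and their genes share loci and lengths, so the shares describe the lists and are no test of them.

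**Figure D5:**
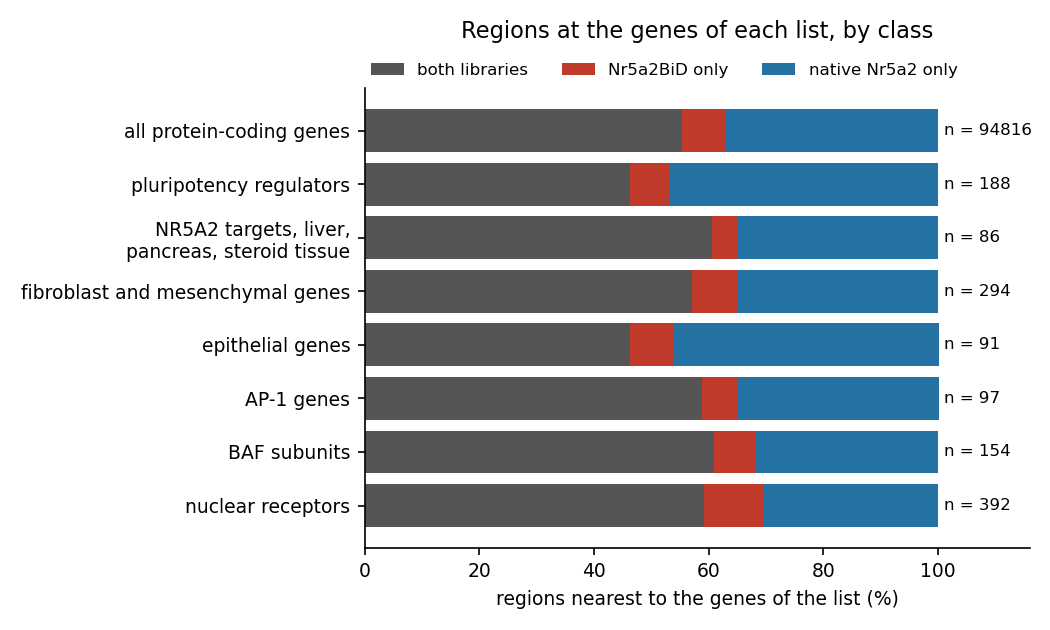
Regions nearest to the genes of each list (x axis, %), split into shared, Nr5a2BiD-only and native-only regions, with the number of regions at the right. Native-only regions make up 37.0% over all genes, 46.8% at pluripotency regulators, 46.2% at epithelial genes and 30.6% at nuclear receptors.

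The Nr5a2 gene itself carried peaks on its coding exons in both libraries. In native Nr5a2 3 such summits had heights of 57, 32 and 75 tags. In Nr5a2BiD 4 such summits had heights of 66, 38, 83 and 20 tags, and the last, at chr1:136948576-136949152 with a score of 85.9, was Nr5a2BiD only. The retroviral cDNA holds the same exons, so peaks there cannot be told apart from vector DNA. The exon peak at chr1:136940244-136941306, 1 of the 10 strongest shared regions, overlapped no peak of another factor.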

How the data were processed

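CUT&Tag libraries were made once per factor, without biological replicates. By the methods of the study, reads were trimmed by the authors (Trim Galore 0.6.4), who then aligned them to mm10 with Bowtie2 2.4.5, removed repetitive, mitochondrial and low-quality alignments (mapping quality under 30) with SAMtools 1.16.1, and called peaks with MACS 1.4.2 without a model, with a shift size of 25 bp and 1 tag kept per position. The methods name no control library for the peak calls. The deposited peak score is 10 times the -log10 p-value of MACS, with a lowest value of 50. The deposited summit signal is the height in whole tags at the summit. Read totals per library are cited from the study but entered no count or share, so depth enters these only through the scores and heights.

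Peaks were merged at 1 bp of overlap in Python 3.11.15 (NumPy 2.4.6, pandas 2.3.3, SciPy 1.17.1; figures with matplotlib 3.10.9). Each region took the values of its highest-scoring peak, and shared regions were centred on the native summit. Percentiles are within a library's own list. Start sites, exons and genes came from GENCODE M21 and sequence from GRCm38, the build of the files. Of the regions 117987 lay on placed chromosomes and entered the sequence and annotation counts, and no peak ran past a chromosome end. Motifs were searched as exact words. The merging and counting steps were tested on simulated data. With 1 library per group no test was made.

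Members and gene lists were chosen with earlier results of these data known. The genes named in the text are the 10 highest-scoring regions of each class, the 10 genes with the most regions or the highest share of a class, and members of the listed gene groups; of these the text gives examples, and a few are not reported here. Alternatives were summits within 100 bp, merging across 1 kb, a score of at least 100, the 50000 highest-scoring peaks, motif windows of 25 and 100 bp, a promoter distance of 500 bp, start sites of all annotated genes and ranks of summit height.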

Additional observations from a re-analysis of the deposited data

Results flagged for a closer look

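The balance of regions called in a single form ran opposite ways for the 4 factors. The log2 ratio of BiD-only over native-only regions was -1.99 for Nr5a2 (10659 and 42474 regions), 0.18 for Nanog (22680 and 20031), 1.88 for Oct4 (54098 and 14727) and 3.15 for Sox2 (70682 and 7954). Each form of each factor is 1 library, so the difference between factors was not tested. Of the 4 factors, Nr5a2 was the one whose BiD form had the shorter peak list.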

How the results depend on the processing

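No paired analysis was possible because each group holds 1 library. Matching by summits within 100 bp gave 53453 shared, 22764 Nr5a2BiD-only and 54577 native-only regions, so native-only regions were then the largest class. The motif shares were 5.40% (Nr5a2BiD only) and 12.2% (native only). The promoter shares were 15.2% (shared), 16.4% (Nr5a2BiD only) and 13.3% (native only), and shares with another factor 50.5%, 54.7% and 35.4% in that order. The order of the classes at promoters and the order of shared and Nr5a2BiD-only regions for other factors changed there, and the cause was not tested. Merging peaks within 1 kb gave promoter shares of 4.36% (Nr5a2BiD only) and 8.84% (native only) and shares with another factor of 54.2% (shared) and 47.0% (Nr5a2BiD only).

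A score of at least 100 left 38094 shared, 6131 Nr5a2BiD-only and 26847 native-only regions. The motif shares were then 9.05% (shared) and 12.3% (native only), the promoter shares 21%, 6.45% and 12.8% (shared, Nr5a2BiD only, native only), the shares with another factor 49.5%, 45.0% and 25.2%, and rho 0.652. The 50000 highest-scoring peaks gave 36479 shared and 13432 native-only regions, motif shares of 9.21%, 6.94% and 12.4%, promoter shares of 21.8%, 8.60% and 13.5%, shares with another factor of 47.8%, 42.4% and 22.5%, and rho 0.641. Ranks of summit height gave a rho of 0.733.

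A motif window of 25 bp gave 4.30%, 3.04% and 5.75%, and one of 100 bp 14.5%, 9.74% and 19.4%. A promoter distance of 500 bp gave 12.0%, 2.87% and 4.55%, and start sites of all annotated genes 25.3%, 12.1% and 19%. The other choices were made after seeing the data: by summits inside a peak of another factor the shares were 43.6%, 43.9% and 20.6%, and centring shared regions on the Nr5a2BiD summit gave a motif share of 8.14%. For the 4 words together, the motif order native only, shared, Nr5a2BiD only was the same under every setting run. Of these values 54 moved beyond their interval or by over 1.5 times and 16 did not. Native-only shares of the gene lists moved in 10 of 28 values and were lowest with the 50000 highest-scoring peaks, at 31.8% for pluripotency regulators and 27.3% for epithelial genes, where the share over all protein-coding genes was 22.4%. The weakest peaks rest on 8 or 9 tags, and an effect of depth was not tested.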
